A study of Mus musculus with 33 samples.

Results

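The genes described here make ribosomes and start translation. They are 38 mouse genes taken by symbol from a fixed list, which was chosen with earlier results of these data known. All 38 are among the 18054 gene rows of the first count table and the 18052 of the second. By role, 9 belong to small nucleolar ribonucleoprotein (snoRNP) particles, 6 to other nucleolar proteins, 3 to small-subunit assembly and 7 to large-subunit assembly. Another 3 belong to RNA polymerase I transcription or its nucleolar cofactors and 2 to polyamine synthesis. The remaining 8 are grouped by their names as translation initiation genes. All 38 passed the filter on low counts in both experiments.

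RNA was sequenced by CEL-seq2, a method that counts transcripts from their 3′ ends, in 33 libraries of skin T cells, sorted as live cells with CD45 and CD8 on their surface. All mice were allergic to dinitrofluorobenzene (DNFB), a hapten that provokes CD8 T cell-mediated contact dermatitis. The series asked how a topical glucocorticosteroid, abbreviated TA and applied at 0.01%, acts on resident memory T cells (TRM), which remain in skin and are marked by CD69 with CD103. Nur77GFP mice served for the first experiment (17 libraries, 8 sets). Their green fluorescent protein (GFP) follows Nur77, a gene switched on by T cell receptor signals, and so marks cells that were recently triggered. All its cells were CD69+CD103+. There were 3 GFP-negative libraries from acetone-treated skin at day 0, just before DNFB retest. At day 1, 24 hours after retest, GFP-negative and GFP-positive cells were taken from acetone-treated and from TA-treated skin, with 2 libraries each. At day 6, 144 hours after retest, and for TA at day 0, only GFP-negative cells were taken, again with 2 libraries per treatment. The second experiment (16 libraries, 8 sets of 2) used C57BL/6 mice and took, at day 2 after challenge, the 4 subsets that CD69 and CD103 define, and CD69+CD103+ cells at day 11 and day 42 with acetone or TA. The day 2 libraries had neither acetone nor TA.

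The table headers carry codes, and a code was translated only where the labels leave 1 reading. The day 1 sets therefore form arm I and arm II, of which one is acetone and the other TA. Sets K, L and M are day 0 TA, day 6 acetone and day 6 TA in an order that is not used here. Sets U, V and W are the day 2 subsets other than CD69+CD103+, and sets P, Q, R and S are CD69+CD103+ cells of day 11 or day 42 with acetone or TA. The labels do not tie replicates to animals, so each p-value reflects the spread among these samples, which may be technical.

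Ribosome assembly begins in the nucleolus, where RNA polymerase I transcribes ribosomal RNA. Box C/D and box H/ACA snoRNPs guide methylation and pseudouridylation of that RNA, and assembly factors fold and cut it into the small and the large subunit. The eIF4F complex then brings capped messenger RNA to the small subunit. In T cells, antigen recognition is known to raise ribosome production before division, and the transcription factor MYC is a known driver of many of these genes.

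Totals ran from 2442825 to 8515297 counts per library in the first experiment and from 2937814 to 13629838 in the second, and log2 CPM of replicates correlated at 0.862 to 0.932 and 0.855 to 0.93 over genes. All 9 CD8 T cell markers were detected in every set, and Itgae, which encodes CD103, stood at 31.6 CPM or more in every CD69+CD103+ library. Arm II was shallower than arm I (2442825 to 3262545 counts against 5440609 to 8515297). RNA of other skin cells was present throughout, with 11 keratinocyte markers summing to 325 to 5100 CPM (counts scaled to library size) over the sets. In bulk libraries, fewer cells of a type and less RNA per cell cannot be told apart.

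In the first experiment the mean of the genes was highest in GFP-positive cells at day 1 and low in day 0 acetone cells and in sets K and L. The mean over the 38 genes, as log2 CPM, was 5.05 ± 0.07 (SD, n = 3) in day 0 acetone cells, 5.05 ± 0.18 in set K and 5.08 in set L (n = 2 each, as for all other sets), and these 3 sets overlapped. It was 5.58 ± 0.03 in set M. In GFP-negative cells of day 1 it was 5.65 ± 0.01 in arm II and 6.06 ± 0.11 in arm I, all 4 libraries above the highest day 0 acetone library (5.09). In GFP-positive cells it reached 6.81 ± 0.04 in arm II and 6.89 ± 0.08 in arm I, with the lowest library at 6.78. Counts of the 38 genes made up 0.413% of a day 0 acetone library on average, 0.518% in arm II and 0.722% in arm I for GFP-negative cells, and 1.15% and 1.12% for GFP-positive cells.

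In the second experiment, normalised separately, the mean was 6.32 ± 0.01 in set U and 6.30 ± 0.01 in day 2 CD69+CD103+ cells, 0.02 apart on this scale. It was 5.93 ± 0.04 in set V and 5.63 ± 0.05 in set W. Among the day 11 and day 42 sets it was 5.23 ± 0.12 in P, 5.39 ± 0.09 in R, 5.41 ± 0.12 in S and 5.46 ± 0.10 in Q. The highest library of these 4 sets (5.53) lay below the lowest of set W (5.59).

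**Figure D1:**
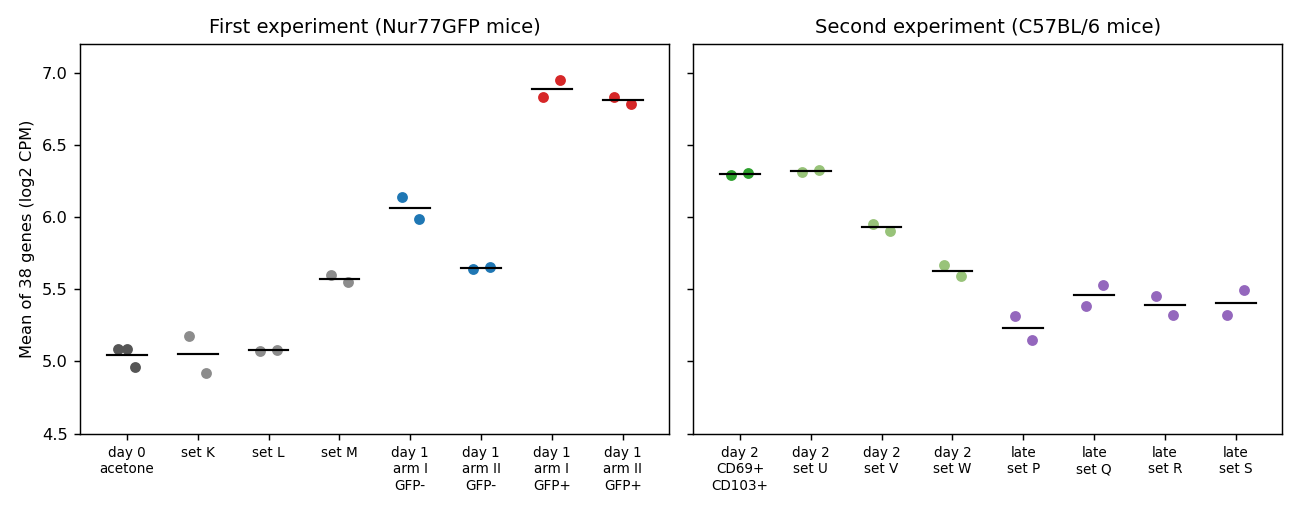
Mean log2 CPM of the 38 genes in each library (points) with the mean of each set (bar), first experiment at left and second at right. GFP-positive day 1 libraries are all at 6.78 or above, and the 8 late libraries are all at 5.53 or below.

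At day 1, GFP-positive cells were set against GFP-negative cells to ask which transcripts go with recent T cell receptor signalling. Averaged over both arms (4 libraries against 4), 27 of the 38 genes were higher with GFP and 0 lower in edgeR's quasi-likelihood test at an adjusted p below 0.05, where 5.59% of all 11588 genes tested were higher. None of the 38 was lower at an unadjusted p below 0.05 or in DESeq2, which called 29 higher (18.3% of all genes in either direction). The median log2 difference of the 38 genes was 1.06, that of all genes -0.03, and 37 of 38 had a positive difference. For 29 of the 38, every GFP-positive library exceeded every GFP-negative one, against 6.14% of all genes. The call was kept by 21 of the 27 under every alternative run, and the other 6 were Dkc1, Ccdc86, Eif1a, Eif3b, Wdr43 and Pes1.

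Each arm gave the same direction. In arm I 14 genes were higher (2.33% of all genes) and in arm II 19 were higher (4.06% of all genes), with 0 lower in either, also unadjusted and in DESeq2. The arms shared 11 genes, 78.6% of those in arm I and 57.9% of those in arm II. The count in arm I fell when any 1 of its 4 libraries was left out, which leaves a single library in that set. DESeq2 gave 16 in arm I and 23 in arm II (9.77% and 14.3% of all genes in either direction).

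Several other measures moved with the GFP state. Mitochondrial transcripts took 22.4 to 25.9% of counts in GFP-positive against 28.4 to 28.6% in GFP-negative arm I libraries and 29.3 to 30.1% against 35.8 to 36.7% in arm II. The sum of the 11 mononuclear phagocyte markers (10 in the table) was 336 to 360 CPM in GFP-positive and 16.1 to 43.2 CPM in GFP-negative libraries of arm II, where 4 were at 0. In arm I it was 767 to 914 and 821 to 896 CPM, and the ranges overlapped. The sum of the keratinocyte markers was lower in GFP-positive cells of arm I (1000 to 1410 against 1610 to 1970 CPM) and higher in those of arm II (505 to 544 against 325 to 444 CPM). With mitochondrial genes removed, or with the marker genes of other cells removed, 27 genes were again higher, and with all libraries thinned to the smallest total 25 were. These settings were chosen after seeing the data. The 9 CD8 T cell markers summed to 8610 to 9740 CPM in GFP-positive and 10900 to 12000 CPM in GFP-negative arm I libraries. In arm II their sums were 7230 to 7260 and 6330 to 6710 CPM. Over both arms 3 of the 9 were lower with GFP and 0 higher, and their part in the result was not tested.

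All 9 snoRNP genes rose with GFP, by log2 0.81 to 1.55. Nop56 (ENSMUSG00000027405.16; GRCm38 chromosome 2, 130274430 to 130279313, plus strand) encodes a core protein of box C/D snoRNPs. It stood at 375 and 346 CPM in GFP-positive arm I cells and 378 and 400 CPM in arm II, against 155 and 152 CPM and 149 and 157 CPM in GFP-negative cells. All 4 GFP-positive values were more than double any GFP-negative one, and the log2 difference was 1.29 ± 0.14 (SE, adjusted p = 1.43e-06). Nhp2, a core protein of box H/ACA snoRNPs, stood at 170 and 205 CPM in GFP-positive arm I cells and 191 and 207 CPM in arm II. Its GFP-negative libraries differed between arms, at 123 and 106 CPM in arm I and 56.4 and 42.4 CPM in arm II, and the log2 difference over both arms was 1.36 ± 0.18 (adjusted p = 2.44e-05). The other risers were Rrp9, which binds the U3 snoRNA, at 1.55, the methyltransferase gene Fbl at 1.18, the pseudouridine synthase gene Dkc1 at 1.16, Nolc1 at 1.14, Gar1 at 1.00, Nop58 at 0.90 and Nop10 at 0.81.

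Of the 6 nucleolar protein genes 5 rose. Npm1 (ENSMUSG00000057113.13; chromosome 11, 33152287 to 33163206, minus strand) encodes nucleophosmin, an abundant chaperone of ribosome assembly. It stood at 1862 and 1988 CPM in GFP-positive arm I cells and 1668 and 1631 CPM in arm II. Its GFP-negative values were 914 and 911 CPM in arm I and 635 and 770 CPM in arm II, so the groups did not overlap (log2 1.15 ± 0.09, adjusted p = 4.13e-08). Ncl, which encodes nucleolin, stood at 676 and 835 CPM in arm I and 621 and 625 CPM in arm II in GFP-positive cells. In GFP-negative cells it was at 404 and 394 CPM and at 253 and 277 CPM, again with no overlap (1.08 ± 0.12, adjusted p = 3.09e-06). Gnl3, the nucleolar GTPase nucleostemin, rose by 1.54, Ccdc86 by 1.83 and Pa2g4 by 0.90. Npm3, a relative of nucleophosmin, was the exception, at 22.6 and 54.7 CPM in arm I and 54.8 and 61.4 CPM in arm II in GFP-positive cells. Its GFP-negative values were 53.3 and 40.8 CPM and 71.7 and 59.5 CPM, which overlapped (-0.23 ± 0.26, adjusted p = 0.659).

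In small-subunit assembly 1 of 3 rose: Wdr43, a processome component, stood at 125 and 114 CPM in arm I and 119 and 96.3 CPM in arm II in GFP-positive cells, against 55.1 and 63.4 CPM and 77.9 and 71.3 CPM (log2 0.77 ± 0.21, adjusted p = 0.0167). Its GFP-positive libraries were all higher. Nop14 (0.15 ± 0.25) and Utp20 (1.14 ± 0.60), with adjusted p of 0.799 and 0.247, had overlapping libraries.

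In large-subunit assembly 2 of 7 rose. Nop16, a nucleolar protein of pre-60S particles, stood at 42.9 and 37.1 CPM in arm I and 43.1 and 29.7 CPM in arm II in GFP-positive cells. Its GFP-negative values were 14.9 and 14.3 CPM and 7.83 and 7.13 CPM, all lower (1.87 ± 0.48, adjusted p = 0.0131). Pes1, which acts in the PeBoW complex with Bop1 and Wdr12, rose by 0.88 ± 0.25 (adjusted p = 0.0234), from 63.2 and 47.3 CPM to 76.2 and 79.2 CPM in arm I and from 42.4 and 49.1 CPM to 124 and 96.3 CPM in arm II. Its GFP-positive libraries were all higher. Its partners Bop1 (0.46) and Wdr12 (1.13), and Rrs1 (1.13), Nop2 (0.88) and Noc2l (0.66), had positive differences that did not pass, with adjusted p from 0.0783 for Rrs1 to 0.361 for Noc2l.

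Of the polymerase I group 2 of 3 rose. Mybbp1a, a nucleolar regulator of ribosomal DNA transcription, stood at 181 and 139 CPM in arm I and 91.3 and 131 CPM in arm II in GFP-positive cells. Its GFP-negative values were lower in every library, at 69.2 and 62.8 CPM and 43.3 and 37.7 CPM (1.37 ± 0.19, adjusted p = 4.67e-05). Ddx21, a nucleolar RNA helicase, rose by 1.04 ± 0.16 (adjusted p = 0.000152), from 159 and 204 CPM to 328 and 399 CPM in arm I and from 90.2 and 131 CPM to 223 and 246 CPM in arm II. Polr1b, the second-largest polymerase I subunit, was too sparse to judge, at 0 to 34 counts per library in the series.

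Of the 8 genes grouped by name as initiation genes 6 rose. Eif5a (ENSMUSG00000078812.10; chromosome 11, 69916714 to 69921958, minus strand) encodes the hypusine-bearing factor eIF5A. It stood at 5042 and 4894 CPM in arm I and 4745 and 5228 CPM in arm II in GFP-positive cells. In GFP-negative cells it was at 3385 and 2975 CPM in arm I and 1923 and 1870 CPM in arm II (log2 1.02 ± 0.08 over both arms, adjusted p = 4.79e-08). The GFP-positive values were alike in both arms while the GFP-negative ones were not. Eif4e, the cap-binding protein of eIF4F, rose by 1.33 ± 0.16 (adjusted p = 9.34e-06). It went from 98.1 and 120 CPM to 242 and 230.0 CPM in arm I and from 82.4 and 70.5 CPM to 229 and 217 CPM in arm II. Its eIF4F partners, the helicase gene Eif4a1 and the scaffold gene Eif4g1, stood at 0.81 ± 0.12 (adjusted p = 0.000122) and 0.59 ± 0.22, the latter not called (adjusted p = 0.0844). Eif1a, Eif2s1 and Eif3b rose by 0.96, 0.65 and 0.64. Eif4ebp1, whose product holds Eif4e inactive, was at 0.13 ± 0.35 (adjusted p = 0.905), and its libraries overlapped.

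Both polyamine genes rose. Odc1, ornithine decarboxylase, stood at 794 and 699 CPM in arm I and 562 and 515 CPM in arm II in GFP-positive cells. Its GFP-negative values were all lower, at 331 and 392 CPM and at 192 and 209 CPM (1.24 ± 0.15, adjusted p = 9.34e-06). Srm (ENSMUSG00000006442.10; chromosome 4, 148591503 to 148594993, plus strand), spermidine synthase, which provides the substrate for hypusine on eIF5A, stood at 219 and 245 CPM in arm I and 156 and 174 CPM in arm II. In GFP-negative cells it was at 133 and 116 CPM in arm I but 37.1 and 40.4 CPM in arm II (1.49 ± 0.18, adjusted p = 1.11e-05).

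**Figure D2:**
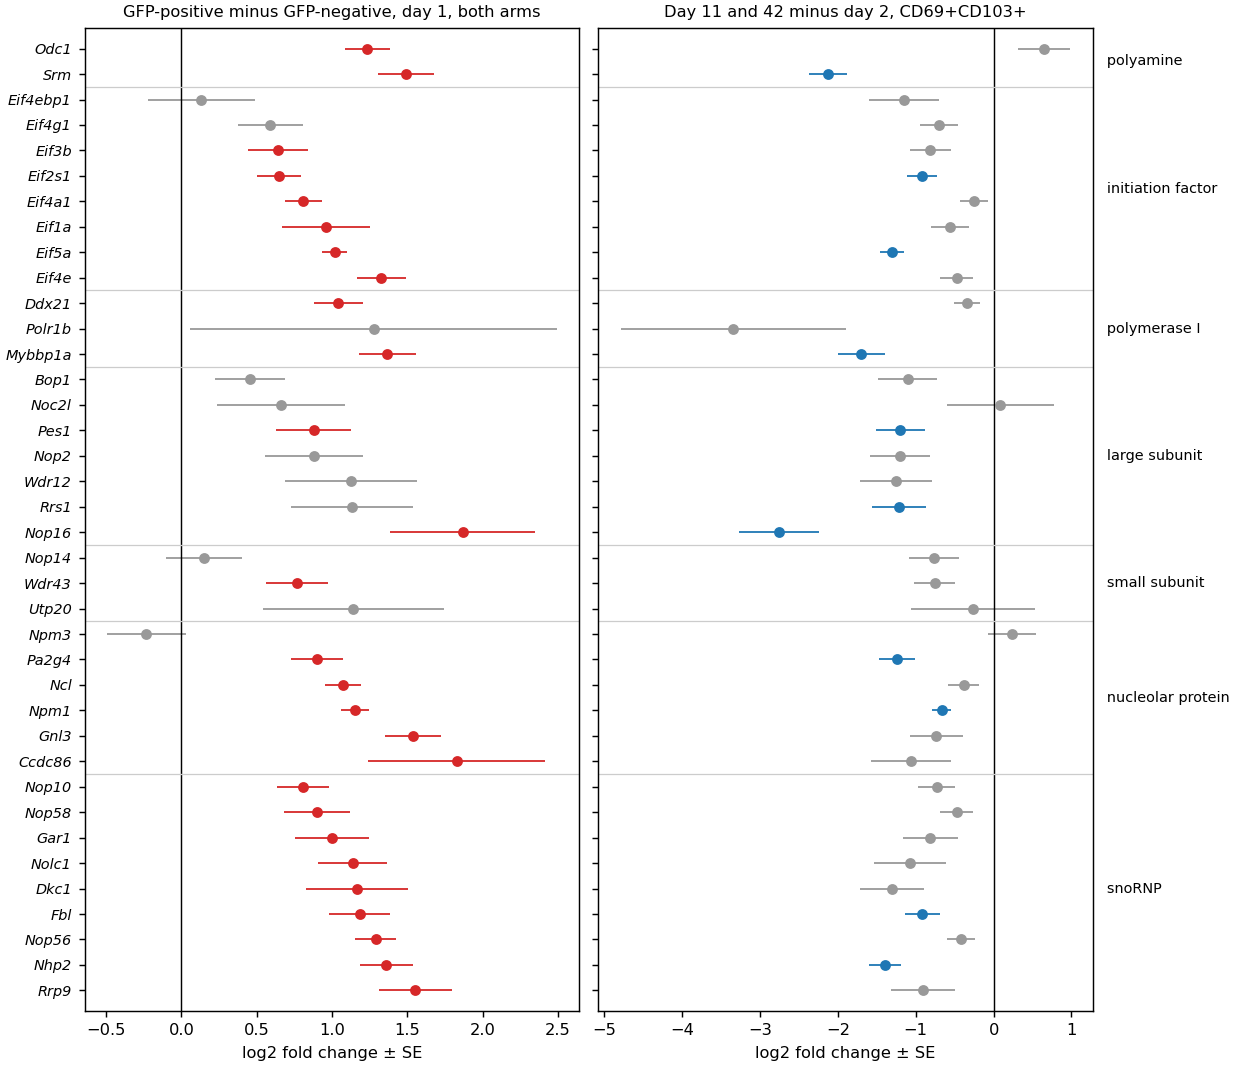
Log2 fold change ± SE of each of the 38 genes, grouped by role, for GFP-positive minus GFP-negative cells over both arms (left) and day 11 and 42 minus day 2 in CD69+CD103+ cells (right). Red marks genes called higher, blue genes called lower and grey genes not called at an adjusted p of 0.05 (27 red at left, 11 blue at right).

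Other genes of the same processes were counted from lists that do not hold the 38, with 5.59% of all genes higher as the background. These lists were also chosen with earlier results of these data known, so their counts are a description. Of 27 further small-subunit genes tested 7 were higher in GFP-positive cells and 0 lower (median log2 0.79), and of 29 large-subunit genes 10 were higher and 0 lower (median 0.94). These included the acetyltransferase gene Nat10 at 2.05 ± 0.63 and the helicase gene Ddx10 at 2.01 ± 0.30. Of 14 polymerase I genes 3 were higher (median 0.56) and of 9 snoRNP assembly genes 2 (median 0.70), with 0 lower in either. Of 35 initiation genes 9 were higher and 0 lower, with a median of 0.29, led by Eif1ax at 0.82 ± 0.14. In the polyamine list of 9, spermine synthase Sms and the catabolic genes Sat1 and Smox were higher, and Paox, a polyamine oxidase gene, was lower. In the MYC network list of 10, Myc was higher (1.29 ± 0.35, adjusted p = 0.0177) and Mxd3, a repressor gene at low counts, lower. All genes had a median of -0.03.

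The GFP difference itself differed between arms for 1 of the 38 genes, Eif5a, where 0.889% of all genes passed in either direction. It was 1.39 ± 0.12 in arm II and 0.64 ± 0.12 in arm I, a gap of 0.75 ± 0.17 (adjusted p = 0.0343). This call was lost when any 1 of 7 of the 8 libraries was left out, all but GFP-negative replicate B of arm I.

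In GFP-negative cells 5 genes stood lower in arm II relative to arm I in edgeR, where 4.71% of all genes were lower. None was higher, also unadjusted and in DESeq2, which called 8 lower (11.9% of all genes in either direction). The 5 in edgeR were Srm (-1.68 ± 0.26, adjusted p = 0.000342), Nhp2 (-1.21 ± 0.26, adjusted p = 0.00567), Odc1 (-0.85 ± 0.21, adjusted p = 0.0177), Eif5a (-0.75 ± 0.12, adjusted p = 0.000358) and Ncl (-0.59 ± 0.17, adjusted p = 0.04). The median of the 38 was -0.44 and that of all genes -0.07. Without GFP-negative replicate B of arm I or replicate A of arm II, 3 were lower. Depth, mitochondrial share (28.4 to 28.6% in arm I, 35.8 to 36.7% in arm II) and the sums of keratinocyte and phagocyte markers given above all differed between these sets. So did the neutrophil marker sum, at 88.4 to 89.4 CPM in arm I and 11.5 to 11.9 CPM in arm II, and that of the 9 CD8 T cell markers, at 10900 to 12000 CPM and 6330 to 6710 CPM, with 4 of the 9 called lower in arm II. The part of CD8 T cell RNA in the result was not tested. With libraries thinned to 1 total, without mitochondrial genes and without marker genes 5 were lower each time.

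In GFP-positive cells 0 of the 38 genes passed in edgeR's test of arm II against arm I, where 3.17% of all genes passed in either direction. At an unadjusted p below 0.05, 1 was higher and 2 lower (15.1% of all genes in either direction), and DESeq2 called 0 (6.18%). The median was -0.13, against -0.09 for all genes.

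The day 1 sets were each set against the same 3 day 0 acetone libraries. In GFP-negative cells 18 of the 38 genes were higher in arm I (2.8% of all genes) and 10 in arm II (3.48% of all genes), with 0 lower, also unadjusted and in DESeq2. The median differences were 1.03 and 0.59. Srm, at 26.9, 27.6 and 25.7 CPM before retest, was higher in arm I (2.22 ± 0.23, adjusted p = 4.34e-06) and not called in arm II (0.54 ± 0.24, adjusted p = 0.188). Gnl3 was higher in both, by 1.37 ± 0.24 and 1.42 ± 0.24 (adjusted p = 0.00143 and 0.000675). The count in arm I was 10 and 9 without GFP-negative replicate A or B. In arm II it was 6 without either GFP-negative library, 6 without day 0 replicate B and 4 without day 0 replicate C.

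In GFP-positive cells 33 genes were higher than at day 0 in arm I (9.92% of all genes) and 32 in arm II (8.39% of all genes), with 0 lower, also unadjusted and in DESeq2. The median differences were 1.95 and 1.78. Srm rose by 3.12 ± 0.23 and 2.62 ± 0.23, Gnl3 by 2.81 ± 0.24 and 3.07 ± 0.24, and Npm1 by 1.69 ± 0.12 and 1.47 ± 0.12. Npm3, Eif4ebp1, Polr1b and Utp20 passed in neither arm. Nop14 was not called in arm I, and Bop1 and Noc2l were not called in arm II.

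Markers of other cells also differed between day 0 and day 1. The keratinocyte sum was 2460 to 3020 CPM at day 0, above the day 1 values of both arms given above. The phagocyte sum was 188 to 340 CPM at day 0, below both sets of arm I and above GFP-negative cells of arm II. The neutrophil sum was 1.49 to 10.5 CPM at day 0, 85.7 to 102 CPM over the arm I libraries and 11.5 to 41.1 CPM over those of arm II. Mitochondrial transcripts took 24.9 to 31.5% of counts at day 0. In GFP-negative cells 18 and 10 genes were again higher in arms I and II without mitochondrial genes or without marker genes, and in GFP-positive cells 33 and 33, or 33 and 32. Beyond these fits, their part in the result was not tested. The 9 CD8 T cell markers summed to 10900 to 12500 CPM at day 0, and their day 1 sums are given above. Against day 0, 2 of the 9 were lower and 1 higher in GFP-negative cells of arm I, and 5 and 0 in arm II. In GFP-positive cells 6 were lower and 2 higher in arm I, and 7 and 1 in arm II. The part of CD8 T cell RNA in these results was not tested.

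Among the sets that are day 0 TA or day 6, set M stood apart. Against day 0 acetone 11 genes were higher and 0 lower in set M, where 2.87% of all genes were higher. Unadjusted, 1 was lower (15.8% of all genes in either direction), and DESeq2 called 0 lower. Srm stood at 73.9 and 75.3 CPM in set M (1.48 ± 0.23, adjusted p = 0.000537), against 31.5 and 21.9 CPM in set K and 30.1 and 16.8 CPM in set L. Eif5a stood at 2395 and 2270 CPM, above its day 0 values of 1529, 1295 and 1168 CPM (0.81 ± 0.10, adjusted p = 0.00011). Nhp2 stood at 160 and 161 CPM, against 47.9, 77.5 and 81.5 CPM at day 0 (1.22 ± 0.22, adjusted p = 0.00222). Pa2g4, an ErbB3-binding nucleolar protein, rose by 1.16 ± 0.22 (adjusted p = 0.00322). Eif4ebp1, not called with GFP, rose by 1.63 ± 0.45 (adjusted p = 0.0401). That call was lost without day 0 replicate A or C, with libraries thinned to 1 total and with a replicate block. The other 10 genes, 90.9% of the 11 and 37% of the 27, were also higher with GFP. Because 27 of all 38 genes were higher with GFP, a large overlap is the default, and it was not tested. The 11 became 4 to 6 without either library of set M or without day 0 replicate A or C, and 6 with libraries thinned to 1 total. Set M also held the highest keratinocyte marker sum of the first experiment, 4720 to 4850 CPM against 2460 to 3020 CPM at day 0. Without marker genes of other cells 10 were higher.

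Set K had 1 gene higher than day 0 acetone (1.19% of all genes), Npm3 at 99.9 and 98 CPM against 47.1, 42.2 and 23.2 CPM (1.39 ± 0.33, adjusted p = 0.0201). None was lower in edgeR, but DESeq2 called 1 higher and 4 lower (7.38% of all genes in either direction), and unadjusted 4 were higher and 5 lower (15.4%). The edgeR call was lost without either library of set K or without day 0 replicate B or C. In set L 0 passed in edgeR, where 0.897% of all genes passed in either direction, with 4 higher and 2 lower at an unadjusted p below 0.05 (9.18% of all genes) and 0 by DESeq2 (2.45%). Against set K, 8 genes were higher in set M (5.83% of all genes) and 0 lower, among them Eif2s1 at 1.39 ± 0.22 and Eif4a1 at 1.02 ± 0.18. Both DESeq2 and the unadjusted p gave 1 lower (14.4% and 21.4% of all genes in either direction). Set K had the larger mitochondrial share (34.9 to 36.3% against 22.2 to 25.4%), smaller totals (2560156 to 2952120 against 7369762 to 7708896 counts) and a lower phagocyte sum (9.44 to 23.6 against 218 to 260 CPM). Its keratinocyte sum (1610 to 1640 against 4720 to 4850 CPM) and CD8 T cell marker sum (8530 to 8710 against 10900 to 12100 CPM) were also lower. The part of CD8 T cell RNA and of other cells was not tested. Without mitochondrial genes, and without marker genes of other cells, 8 were again higher, and with libraries thinned to 1 total 7 were. Against set L, 5 were higher in set M (1.48% of all genes), namely Srm, Nhp2, Gar1, Eif5a and Npm1, and 2 or 3 when any 1 of the 4 libraries was left out. Keratinocyte sums were 4720 to 4850 CPM in set M and 784 to 801 CPM in set L. Their phagocyte and CD8 T cell marker sums overlapped. The phagocyte sum was 201 to 241 CPM in set L and 9.44 to 23.6 CPM in set K. Their CD8 T cell marker sums were 11500 to 12200 and 8530 to 8710 CPM, and mitochondrial shares 24.4 to 24.5% and 34.9 to 36.3%. Set L had the lower keratinocyte sum. Whether RNA of CD8 T cells or other cells plays a part in either comparison with set L was not tested. Between sets L and K 2 were higher in L (Eif2s1 and Odc1) and 3 lower (Npm1, Npm3 and Gnl3), where 5.71% of all genes passed in either direction. Leaving out replicate B of set K gave 1 higher and 1 lower, leaving out replicate A of set L 0 and 1, and leaving out its replicate B 0 and 0.

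At day 2, CD69+CD103+ cells and the mean of sets U, V and W did not differ by a called gene in edgeR, where 0.368% of all genes passed in either direction. Of the 38 genes 3 were higher and 0 lower at an unadjusted p below 0.05 (6.65% of all genes in either direction), and DESeq2 called 0 (1.03%). Single comparisons with set U (0.237% of all genes in either direction) and set V (0.417%) called 0 of the 38, with 1 higher and 1 lower, and 3 higher and 0 lower, at an unadjusted p below 0.05 (6.28% and 6.41% of all genes), and 0 by DESeq2 in both. Against set W (0.27% of all genes) edgeR called 0, with 11 higher and 0 lower unadjusted (6.37% of all genes in either direction) and 2 higher by DESeq2 (3.65%).

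Between the other subsets, Npm1 and Srm were lower in set W than in set U (2 genes, where 0.294% of all genes were lower). Npm1 stood at 1143 and 911 CPM in set W and 1944 and 1470 CPM in set U (-0.73 ± 0.17, adjusted p = 0.0439). Srm stood at 57.5 and 45.0 CPM in set W and 169 and 151 CPM in set U (-1.64 ± 0.35, adjusted p = 0.0286). Neither gene's libraries overlapped. The count was 0 without replicate 1 of set U or replicate 2 of set W and 1 without replicate 1 of set W. It was 5 by DESeq2 (3.28% of all genes in either direction), and 16 genes were lower unadjusted (11.3%). Marker sums were higher in set W than in set U for phagocytes (548 to 729 against 111 to 130 CPM), neutrophils (85.5 to 111 against 11.5 to 13.8 CPM) and keratinocytes (3760 to 4130 against 2270 to 2900 CPM). Without these marker genes 2 were again lower, but that fit keeps any reads of both genes from other cells. The part of those cells was not tested. Set V against set U (0.556% of all genes in either direction) and set W against set V (0.0817%) gave 0 calls in edgeR and DESeq2, with 1 higher and 7 lower, and 0 higher and 2 lower, unadjusted (9.5% and 3.89% of all genes).

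In CD69+CD103+ cells some of the genes were lower in the late sets, of day 11 and day 42 with acetone or TA, than at day 2 without either, so day and treatment cannot be told apart here. Over sets P to S together (8 libraries against 2), 11 of the 38 were lower and 0 higher in edgeR, where 4.88% of all 12236 genes tested were lower. The median of the 38 was -0.86, that of all genes -0.08, and 3 of the 38 had a positive difference. For 24 of the 38, every late library lay below both day 2 libraries, against 8.33% of all genes. DESeq2 called 11 lower (11.5% of all genes in either direction), and none was higher there or at an unadjusted p below 0.05. Fewer were lower without either day 2 library, which leaves a single library there. With no filter on low counts 17 were lower, and of the 7 genes newly called in that fit not all were lower.

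Srm showed one of the widest gaps, at 145 and 104 CPM at day 2 against 19.1 to 53.7 CPM over the 8 late libraries (-2.13 ± 0.24, adjusted p = 1.33e-05). Eif5a stood at 2686 and 2329 CPM at day 2. Its late values were 1043 and 1160 CPM in set P, 1075 and 860 CPM in set Q, 1020 and 810 CPM in set R and 825 and 1375 CPM in set S, all lower (-1.30 ± 0.15, adjusted p = 1.60e-05). Nhp2 stood at 133 and 150 CPM at day 2 and 38.4 to 77.3 CPM late (-1.40 ± 0.20, adjusted p = 0.000148). Mybbp1a stood at 76.7 and 83.3 CPM at day 2 and 15.3 to 49.1 CPM late (-1.70 ± 0.31, adjusted p = 0.0013). Pa2g4 stood at 270 and 248 CPM at day 2 and 56.5 to 144 CPM late (-1.24 ± 0.23, adjusted p = 0.00154).

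Nop16 fell from 17.3 and 32.0 CPM to 0.621 to 8.19 CPM (-2.75 ± 0.52, adjusted p = 0.00184), a call lost without day 2 replicate 2. The other genes called were Npm1 (-0.67), Eif2s1 (-0.92), Fbl (-0.92), Pes1 (-1.20) and Rrs1 (-1.21). Eif2s1 was lost without day 2 replicate 1, Fbl and Pes1 without either day 2 library, and Rrs1 without either day 2 library, replicate 2 of set P or replicate 2 of set R. In small-subunit assembly, where 0 of 3 passed, Nop14 (-0.77) and Wdr43 had negative differences, and Wdr43, the member with the smallest p, stood at 60.9 and 66.3 CPM at day 2 and 24.9 to 53.8 CPM late (-0.76 ± 0.26, adjusted p = 0.0944). Of the 11 lower genes 10 were also among the 27 higher with GFP in the first experiment, 90.9% and 37% of these lists. The exception was Rrs1. Because 27 of all 38 genes were higher with GFP, most of any 11 of them would be shared, and the overlap was not tested. These comparisons share no library.

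Odc1 did not follow Srm. It stood at 280 and 391 CPM at day 2 and at 303 to 840 CPM late (0.65 ± 0.34, adjusted p = 0.316), with overlapping libraries. In the further lists, 2 of 27 small-subunit, 2 of 29 large-subunit, 1 of 14 polymerase I and 1 of 9 snoRNP assembly genes were lower and 0 higher, where 4.88% of all genes were lower. Of 35 initiation genes 3 were lower and 1 higher, the latter Pdcd4 (1.43 ± 0.28), which encodes an inhibitor of eIF4A. Keratinocyte marker sums were 3630 to 5100 CPM at day 2 and 1670 to 5000 CPM late, and those of phagocyte markers 454 to 507 CPM and 243 to 991 CPM. The 5 neutrophil markers summed to 125 to 131 CPM at day 2 and 2.21 to 19.2 CPM late, and totals were higher at day 2 (11395588 to 11532881 against 2937814 to 7407069 counts). Without marker genes of other cells, and with libraries thinned, 11 were lower.

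Sets P to S are 2 days by 2 treatments, and the 3 ways to set 2 of them against the other 2 were run without saying which is treatment. Of the 38 genes edgeR called 0 in each, where 1.67%, 0.474% and 0.4% of all genes passed in either direction for R and S against P and Q, Q and S against P and R, and P and S against Q and R. Unadjusted, 2 were higher and 4 lower, 3 higher and 0 lower, and 1 higher and 4 lower (14.5%, 9.82% and 9.87% of all genes). DESeq2 called 0, 1 and 0 (4.5%, 2.26% and 2.42%), and edgeR called 1 in the first without replicate 2 of set S.

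**Figure D3:**
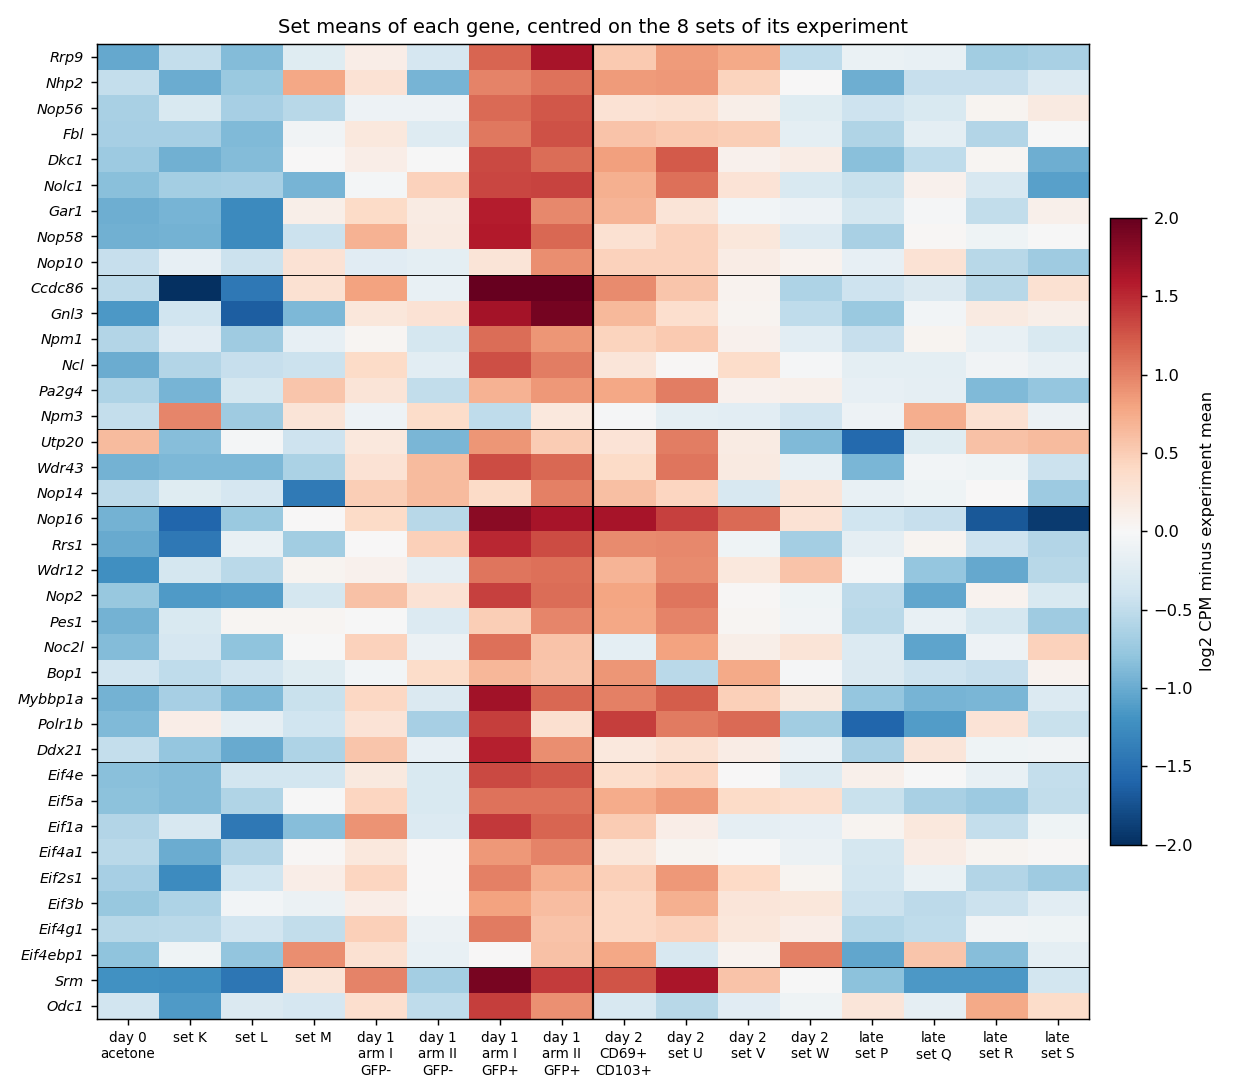
Mean log2 CPM of each of the 38 genes (rows, by role) in each of the 16 sets (columns), minus its mean over the 8 sets of the same experiment, with the vertical line between the experiments. Most rows are red in both GFP-positive sets and in day 2 CD69+CD103+ cells and set U, and Npm3 and Odc1 differ from the rest.

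The genes varied together over the 16 sets, each experiment centred on its own mean. Pearson r of a gene's set means with the mean of the other members had a median of 0.881 over the 38 genes, with 29 above 0.8, against a median of -0.04 for other genes, of which 2.08% were above 0.8. Sets share libraries between genes, so this is a description. Fbl was the most typical (r = 0.964), then Eif5a (0.949) and Mybbp1a (0.946). Odc1 had r = 0.919 within the first experiment and -0.796 within the second, over 8 sets each. Npm3 had r = -0.19. The 5 other genes closest to the mean were Cct5 (0.961), Serbp1 (0.959), Cct3 (0.959), Mapkapk2 (0.958) and Nhp2l1 (0.954).

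Myc itself paralleled the 38 genes in the first experiment (r = 0.884 over 8 sets) and not in the second (r = -0.138). It stood at 4.05, 9.24 and 17.4 CPM in day 0 acetone cells, at 20 and 26.6 CPM (arm I) and 70.5 and 30.5 CPM (arm II) in GFP-negative cells, and at 76.6 and 57 CPM and 100 and 109 CPM in GFP-positive cells. At day 2 CD69+CD103+ cells held 60.7 and 63.4 CPM. The late sets held 41.1 to 113 CPM, so that the mean of the 38 genes was low there while Myc was not (0.29 ± 0.24, adjusted p = 0.592).

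**Figure D4:**
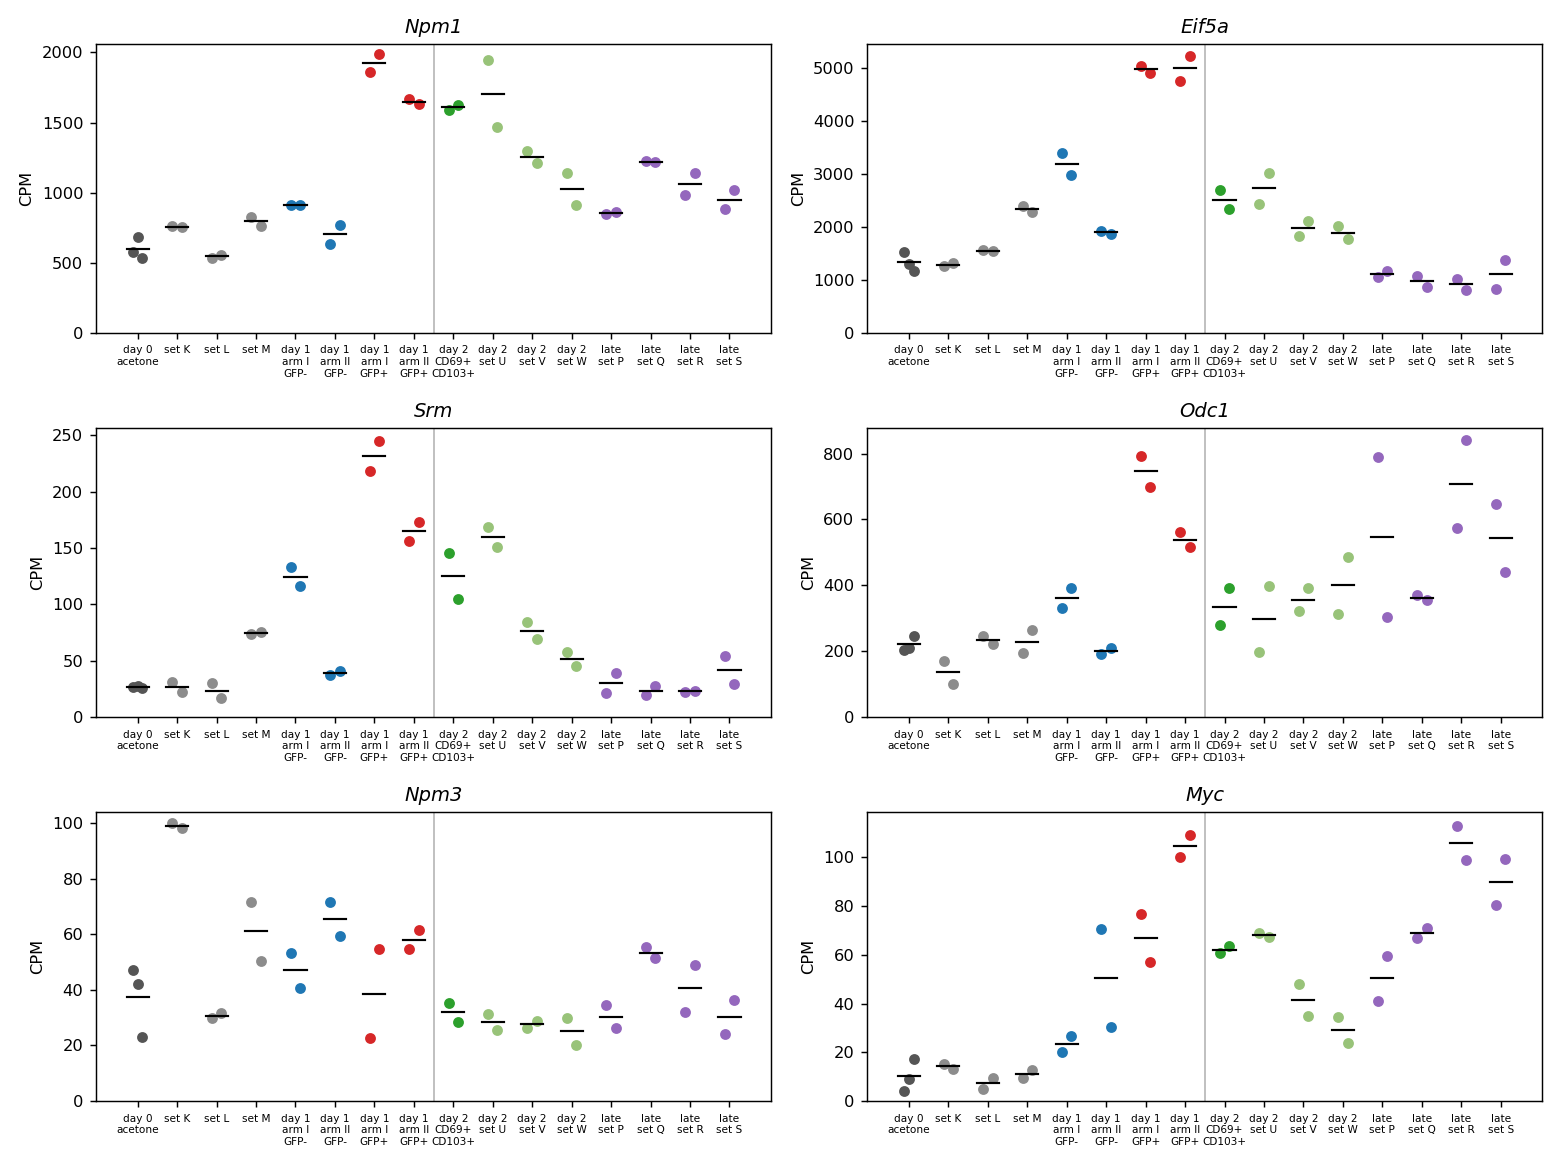
CPM of Npm1, Eif5a, Srm, Odc1, Npm3 and Myc in each library (points) with the mean of each set (bar), first experiment left of the vertical line and second right of it. Srm and Eif5a are low in all 8 late libraries while Odc1 (303 to 840 CPM) and Myc (41.1 to 113 CPM) are not, and Npm3 peaks in set K.

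Promoter sequence was read for the members that RefSeq's table for GRCm38.p6 holds, 31 of 38, in windows from 250 bases before to 50 after each start site. The motif CACGTG, the palindromic E-box that MYC with MAX is known to bind among other factors and that reads the same on both strands, occurred in windows of 10 of the 31 genes (32.3%), against 8.09% of 27025 genes in the table. For Nop2, Eif5a, Eif4a1, Eif4e and Eif4g1 a match lay before a start site. For Ccdc86, Wdr43, Pes1, Mybbp1a and Utp20 it lay only in the first bases after it. The stretches below show the match, in capitals, with up to 40 bases on each side. They are printed for genes with a match before a start site whose stretch touches no annotated exon.
Nop2: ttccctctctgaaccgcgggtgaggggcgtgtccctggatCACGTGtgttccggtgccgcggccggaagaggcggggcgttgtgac
Eif5a: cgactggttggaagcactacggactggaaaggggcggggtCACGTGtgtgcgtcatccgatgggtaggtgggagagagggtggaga
Eif4a1: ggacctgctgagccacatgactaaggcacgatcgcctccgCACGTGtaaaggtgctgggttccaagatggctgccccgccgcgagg
Eif4g1: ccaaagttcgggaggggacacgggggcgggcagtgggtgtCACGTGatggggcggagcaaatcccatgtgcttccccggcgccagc
They lie at chr6:125131783-125131868 (plus strand), chr11:69921415-69921500 (minus), chr11:69672567-69672652 (minus) and chr16:20672633-20672718 (plus), and the match begins 60, 74, 189 and 54 bases before the nearest start site of the table. Eif5a and Eif4a1 rose with GFP in both arms, while Nop2 (0.88 ± 0.33, adjusted p = 0.0904) and Eif4g1 did not pass the test over both arms. The 27025 genes of the table were not limited to those expressed in these cells, so the shares are not of like genes. A match is a string of letters and no evidence of binding.

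Counts of some members carry extra uncertainty because their 3′ ends, the part that CEL-seq2 reads, match other annotated genes. Of all 50-base words in the last 500 bases of the transcripts, 67.4% of those of Fbl also occur in other genes, as do 38.8% for Nop56, 25.3% for Npm3, 25.1% for Npm1, 22.6% for Eif4e, 20.8% for Wdr12, 17.7% for Odc1, 13.3% for Polr1b and 8% for Eif5a. The sources used here do not give how reads with several matches were counted or whether strand was used. Exons of several members overlap another gene on the opposite strand, so reads of such pairs may not be separable. These pairs include Nop56 with Idh3b, Nhp2 with Rmnd5b, Mybbp1a with Spns2, Gnl3 with Pbrm1, Rrp9 with Parp3 and Dkc1 with Mpp1. They also include Bop1 with Mroh1, Wdr12 with Carf, Ccdc86 with Ptgdr2 and Noc2l with Samd11. Npm3, Nop14, Wdr43 and Pes1 also overlap a gene on the opposite strand. Exons of Ncl, Nop56, Nop58, Pa2g4, Eif4a1, Eif4e, Eif4g1 and Gnl3 overlap another gene on the same strand. Strand would not separate reads there.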

How the data were processed

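The authors deposited raw counts per gene and library in 2 tables. The submitters' processing notes name GRCm38, HTSeq, BWA 0.7.15 and bcl2fastq 2.2. Whether molecular barcodes were collapsed is not stated there, so values are treated as reads. External control (ERCC) rows, at most 16 counts per library, were left out. The test was that of edgeR 4.0.16 in R 4.3.3 (filterByExpr, TMM, robust quasi-likelihood fit with 1 mean per set and all libraries of an experiment, Benjamini-Hochberg adjustment over all genes, called below 0.05). The SE is the log2 fold change over the square root of F. CPM are scaled by TMM, and log2 CPM use a prior count of 2. Scripts were tested on simulated data. Alternatives were median-of-ratios size factors, no filter, DESeq2 1.42.0, a replicate block, leaving out each library, and 3 settings added later. Gene positions are from GENCODE (GRCm38), promoters from RefSeq. The 38 genes, roles and further lists were chosen with earlier results of these data known. Per-library values are printed, for each role, for the 1 or 2 genes with the smallest p in the GFP comparison and the gene with the smallest p in the late comparison, with other members added after their values were seen. Myc is named by default, and the 5 genes most like the 38 by correlation.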

Additional observations from a re-analysis of the deposited data

Results flagged for a closer look

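The GFP difference of Eif5a was larger in arm II than in arm I by log2 0.751 (0.75 ± 0.17, adjusted p = 0.0343 in edgeR's test of the interaction), and this test of a difference between the arms is what marked it for a closer look. Its GFP-positive libraries stood at 4745 to 5228 CPM in both arms together, and its GFP-negative libraries at 2975 and 3385 CPM in arm I and 1870 and 1923 CPM in arm II. Arm II libraries were also shallower and held a larger share of mitochondrial transcripts, and the part of these in the difference was not tested beyond the fits with thinned libraries and without mitochondrial genes, in which the call was kept. DESeq2 called 3 of the 38 genes in the same comparison (2.8% of all genes in either direction).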

How the results depend on the processing

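Leaving out 1 library at a time gave 22 to 26 genes higher with GFP over both arms (27 in all), 6 to 8 in arm I, 15 to 17 in arm II and 0 to 1 for the difference between arms; 3 to 4 lower in GFP-negative cells of arm II; against day 0 acetone 9 to 15 and 4 to 8 in GFP-negative cells of arms I and II, 28 to 33 and 27 to 32 in GFP-positive cells, 0 to 1 in set K and 4 to 9 in set M; 2 to 3 in set M against L, 0 to 2 higher and 0 to 2 lower in set L against K, 0 to 3 lower in set W against U, 0 to 1 for R and S against P and Q, and 7 to 16 lower late. No low-count filter gave 2 for the difference between arms, 4 lower in set W against U, 1 in set V against U, 1 for R and S against P and Q and 17 lower late. DESeq2 gave 3 for the difference between arms, 8 lower in GFP-negative cells of arm II and 5 lower in set W against U. It gave 9 in set M against L (4.53% of all genes in either direction). For day 2 CD69+CD103+ cells against set W it gave 2, and for Q and S against P and R 1. The other DESeq2 shares are given above. Thinned libraries gave 6 in set M against day 0 and 1 higher in set L against K.

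The replicate block was fitted in the first experiment. It gave 25 genes higher with GFP over both arms, and 5 in GFP-negative cells of arm II, 0 in set K and 4 in set M against day 0 acetone. Same-lettered libraries did not deviate together (r from -0.06 to 0.033 over 21 pairs of sets). Each r rests on a single difference between libraries per set, so it cannot show whether same-lettered libraries came from the same animals. In the second experiment no paired analysis was possible because the columns carry no letter.

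Of single genes, 5 changed sign when 1 library was left out, each with an adjusted p above 0.9 there. With GFP these were Npm3 (-0.609 to 0.023), Nop14 (-0.057 to 0.354) and Eif4ebp1 (-0.085 to 0.587), each turned by 1 library, and late Utp20 (-1.232 to 0.94, turned without day 2 replicate 2) and Noc2l (-0.257 to 0.251, turned by 1 library each of P, Q, R and S). The cause of these moves was not tested, beyond fewer samples or genes in the fit. The GFP difference in the mean of the 38 genes (0.99) was 1 without mitochondrial transcripts and 1.01 with a prior count of 0.5, and the late one (-0.93) -0.92 and -0.97, while that of set K against day 0 (0) was 0.01 and -0.01, and the filter for both experiments left all 38. Depth limits sparse members such as Polr1b (0 to 34 counts per library).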
